A study of Homo sapiens with 24 samples.

Results

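MKI67, TOP2A and TOP2B were followed in LNCaP cells, an established androgen-sensitive human prostate cancer line, after siRNA against the long noncoding RNAs TAPIR-1 and TAPIR-2. The 3 genes were chosen by name out of 22692 genes that the array probes could be assigned to, and every probe of them is given here, which makes 5 probes at each time point: 3 for MKI67, 1 for TOP2A and 1 for TOP2B. These genes and the gene lists below were chosen with earlier results of these data known. The cells were electroporated with a Stealth negative control duplex of medium GC content (scramble), with si-A1, directed against TAPIR-1, or with si-A2, directed against TAPIR-2, and total RNA was taken 24 h or 48 h later. All groups share the line, the serum-containing medium and the electroporation, so no untreated cells enter the comparisons, and each lncRNA was targeted with 1 siRNA. RNA was hybridised to one-colour Agilent arrays, with 4 biological replicates for each siRNA and time. One si-A2 array at 48 h (replicate 2) was dim, was left out by the authors, and was left out here too, which leaves 12 arrays at 24 h and 11 arrays at 48 h.

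Ki-67, the product of MKI67, is a nuclear protein of cycling cells that coats the surface of mitotic chromosomes and is the most widely used histological marker of proliferation. Type II topoisomerases cut both strands of one DNA duplex, pass another duplex through the break and reseal it. TOP2A is made mainly by dividing cells and untangles sister chromatids before and during mitosis, while TOP2B is also present in resting cells, where it acts on DNA that is being transcribed. TOP2A and Ki-67 are therefore read as signs of proliferation, and TOP2B is the isoform to set beside them.

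All 3 genes lie on the minus strand of GRCh38.p14. MKI67 spans chr10:128096659-128126423, TOP2A chr17:40388525-40417896 and TOP2B chr3:25597905-25664907. The 250 bases upstream of each start, from RefSeq on the same build, are shown because promoters of genes expressed in the late cell cycle are known to carry a cell cycle homology element with the core TTTGAA and CCAAT boxes bound by NF-Y. These are chr10:128126424-128126673 for MKI67, chr17:40417897-40418146 for TOP2A and chr3:25664908-25665157 for TOP2B. Each is printed 5′ to 3′ in the direction of the gene, with matches to TTTGAA and CCAAT on either strand in capitals, so that a match on the other strand reads TTCAAA or ATTGG.
MKI67: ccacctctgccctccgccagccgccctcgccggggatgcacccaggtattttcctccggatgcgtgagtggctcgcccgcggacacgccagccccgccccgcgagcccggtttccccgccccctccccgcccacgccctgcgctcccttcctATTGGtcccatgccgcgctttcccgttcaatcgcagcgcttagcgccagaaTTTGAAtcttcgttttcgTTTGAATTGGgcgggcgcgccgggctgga
TOP2A: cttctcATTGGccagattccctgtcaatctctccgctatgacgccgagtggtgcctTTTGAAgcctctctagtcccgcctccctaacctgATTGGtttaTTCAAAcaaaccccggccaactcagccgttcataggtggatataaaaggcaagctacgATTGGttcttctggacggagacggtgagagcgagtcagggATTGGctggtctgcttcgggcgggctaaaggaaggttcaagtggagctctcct
TOP2B: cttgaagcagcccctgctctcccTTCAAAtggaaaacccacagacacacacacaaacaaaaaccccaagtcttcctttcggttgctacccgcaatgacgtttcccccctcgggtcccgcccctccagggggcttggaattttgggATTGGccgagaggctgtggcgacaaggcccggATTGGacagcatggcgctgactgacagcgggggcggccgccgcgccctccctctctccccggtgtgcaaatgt

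The MKI67 window held 2 TTTGAA matches on the strand of the gene, 47 to 42 and 29 to 24 bases before the start, and the second shares 1 base with the nearer of 2 CCAAT matches. The TOP2A window held 2 TTTGAA matches, 194 to 189 bases before the start and, on the other strand, 151 to 146 bases before it, beside 4 CCAAT matches. The TOP2B window held 1 TTTGAA match, on the other strand and 227 to 222 bases before the start, and 2 CCAAT matches. Among 35116 upstream windows of the same length from 27305 genes, 13.3% held TTTGAA, 32% held CCAAT and 4.69% held both, so all 3 windows belong to that last share. The variant TTCGAA and the E2F-type motifs TTTCCCGC, TTTGGCGC and TTTGGCGG had no match in the 3 windows. A match is a run of letters here, and binding was not measured. A second annotated start of TOP2B lies within the gene, and its window held none of these motifs.

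The arrays used had a median processed intensity between 20.4 and 57.2, with 58.5% to 71.7% of the probes rated well above background. The dim array had a median intensity of 13.9 and 61.5% of its probes well above background, and its median correlation with the other arrays of its time point was 0.55, against 0.954 or more for each array used. Markers of luminal prostate cells and LNCaP were well above background on all arrays for 8 of 8 genes at both times, and the basal cell marker KRT5 was so on none. The other basal markers were well above background on part of the arrays, KRT14 on 10 of 12 at 24 h and 10 of 11 at 48 h, and TP63 on 7 of 12 and 1 of 11. No probe was matched to TAPIR-1 here, so its level was not analysed. For TAPIR-2, the probe A_19_P00318461 read 5.09, 4.99, 5.25 and 4.81 on the scramble arrays at 24 h and 4.71, 3.12, 4.61 and 3.82 on the arrays labelled si-A2, on the log2 scale of normalised intensity used throughout. The groups did not overlap, but the difference of -0.97 (SE 0.326) missed the threshold (limma, Benjamini-Hochberg adjusted p = 0.235). At 48 h the same probe read 4.70, 5.41, 4.01 and 4.44 with scramble and 5.62, 3.83 and 4.61 on the arrays labelled si-A2, and the groups overlapped (difference 0.24, SE 0.259, adjusted p = 0.692). Another TAPIR-2 probe at 48 h, A_22_P00019831, was well above background on no array used. It differed by -0.58 with si-A2 (SE 0.516, limma adjusted p = 0.615). No TAPIR-2 decrease past the threshold was thus measured on these arrays for the si-A2 label at 24 h or 48 h. The paper reports knockdown of both lncRNAs in LNCaP cells by quantitative PCR, at a later time. Here si-A1 and si-A2 are used below as labels.

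TOP2A was lower with both siRNAs at both times. On the scramble arrays at 24 h its log2 intensity was 7.46, 7.60, 7.60 and 7.30 in replicates 1 to 4. With si-A1 it was 6.17, 5.78, 5.86 and 5.48, and with si-A2 it was 5.93, 5.51, 5.42 and 5.54. Every knockdown array was below every scramble array, and the knockdown groups overlapped each other. Relative to scramble, TOP2A fell by 1.67 on the log2 scale with si-A1 (SE 0.159, 3.18-fold lower, limma adjusted p = 0.000284) and fell by 1.89 with si-A2 (SE 0.159, 3.71-fold lower, adjusted p = 0.000107). Both calls held in all 12 fits that left out 1 array. A probe is called here at a Benjamini-Hochberg adjusted p below 0.01 over all probes tested together with a log2 difference of at least 0.5. At 24 h TOP2A is read by up to 10 repeated spots on an array, whose median coefficient of variation was 8.57%.

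At 48 h TOP2A read 8.44, 8.29, 7.99 and 8.12 on the scramble arrays. With si-A1 it read 4.82, 5.13, 4.41 and 4.70, and with si-A2 it read 7.06, 5.52 and 6.29 in replicates 1, 3 and 4. The 3 groups were fully separated, with si-A1 lowest and si-A2 between. TOP2A fell by 3.45 with si-A1 (SE 0.212, 10.9-fold lower, limma adjusted p = 5.6e-05) and fell by 1.83 with si-A2 (SE 0.231, 3.54-fold lower, adjusted p = 0.00831). The si-A1 call held without each array in turn, whereas the si-A2 call was lost in each of the 11 fits that left out 1 array, with values from -2.12 to -1.53 and adjusted p from 0.0153 to 0.0354. It was also lost with the replicate number as a block (-1.85, adjusted p = 0.0213). TOP2A at 48 h is read by 1 spot.

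**Figure D1:**
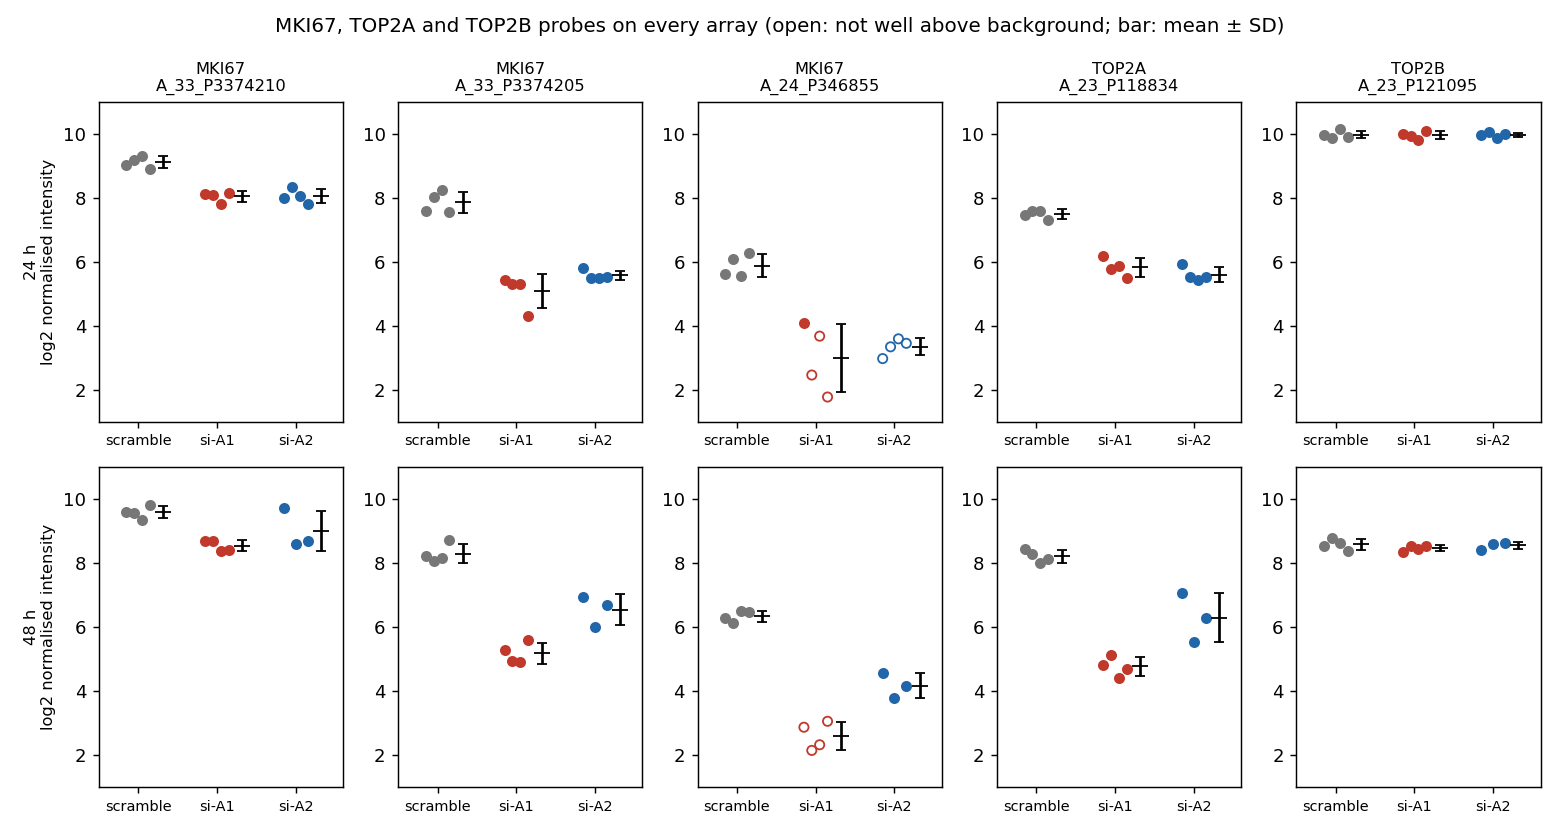
Normalised log2 intensity (vertical axis) of the 3 MKI67 probes, TOP2A and TOP2B on each array, in the scramble, si-A1 and si-A2 groups at 24 h and 48 h; points are arrays, open points were not well above background, and bars are the mean and SD of 4 arrays, or of 3 for si-A2 at 48 h. TOP2A separates all knockdown arrays from scramble at both times, while TOP2B lies between 9.82 and 10.15 on all arrays at 24 h and between 8.35 and 8.76 on all arrays at 48 h.

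For MKI67, the brightest of its probes, A_33_P3374210, gave the smallest differences. At 24 h it read 9.04, 9.19, 9.32 and 8.90 with scramble, 8.13, 8.08, 7.81 and 8.16 with si-A1, and 7.99, 8.35, 8.05 and 7.82 with si-A2. Both knockdown groups lay below scramble without overlap. The probe fell by 1.07 with si-A1 (SE 0.152, limma adjusted p = 0.00360) and fell by 1.06 with si-A2 (SE 0.152, adjusted p = 0.00393), which is 2.10-fold and 2.08-fold lower. The si-A1 call was lost without si-A1 replicates 1, 2 or 3 or scramble replicate 2, and the si-A2 call without scramble replicates 1 or 2 or si-A2 replicates 1, 3 or 4, where adjusted p reached 0.0188 and 0.0190. With the replicate number as a block, both calls were lost (limma adjusted p = 0.0135 with si-A1 and 0.0150 with si-A2).

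At 48 h the same probe read 9.61, 9.56, 9.35 and 9.82 with scramble and 8.69, 8.67, 8.38 and 8.40 with si-A1. The 3 si-A2 arrays read 9.71, 8.60 and 8.67, so that replicate 1 lay within the scramble range and the other two lay below it. The probe fell by 1.05 with si-A1 (SE 0.193, limma adjusted p = 0.00792), a call that held in only 2 of the 11 fits that left out 1 array, those without si-A2 replicate 1 or replicate 3, and that was lost with the replicate number as a block (adjusted p = 0.0184). With si-A2 the difference was -0.53 (SE 0.210, adjusted p = 0.239), and it was -0.87 without si-A2 replicate 1.

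The second MKI67 probe, A_33_P3374205, gave larger differences. At 24 h it read 7.60, 8.04, 8.24 and 7.57 with scramble. With si-A1 it read 5.42, 5.30, 5.29 and 4.29, and with si-A2 it read 5.79, 5.48, 5.51 and 5.54. All knockdown arrays lay below the lowest scramble array, and the lowest reading of the probe was si-A1 replicate 4. It fell by 2.78 with si-A1 (SE 0.249, 6.89-fold lower, limma adjusted p = 0.000185) and fell by 2.28 with si-A2 (SE 0.249, 4.86-fold lower, adjusted p = 0.000649), and both calls held in all 12 fits that left out 1 array.

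At 48 h it read 8.20, 8.06, 8.15 and 8.71 with scramble and 5.29, 4.93, 4.90 and 5.59 with si-A1. With si-A2 it read 6.93, 6.0 and 6.67. The 3 groups did not overlap, and si-A2 lay between the others. The probe fell by 3.11 with si-A1 (SE 0.25, 8.61-fold lower, limma adjusted p = 0.000120), which held without each array in turn. With si-A2 the difference was -1.75 (SE 0.273, 3.37-fold lower) and missed the threshold at an adjusted p of 0.0170. It was called under 3 of 24 alternative settings. These were normexp (limma adjusted p = 0.000545), the slide as a random block (0.00895) and a filter on probes well above background (0.00479).

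The dimmest MKI67 probe, A_24_P346855, was the one that mostly fell short of the background limit after knockdown. At 24 h it read 5.60, 6.10, 5.55 and 6.26 with scramble, 4.08, 2.46, 3.68 and 1.77 with si-A1, and 2.97, 3.3, 3.59 and 3.45 with si-A2. Its signal stood well above background with scramble throughout, on 1 of 4 si-A1 arrays (replicate 1) and on no si-A2 array. The difference was -2.88 with si-A1 (SE 0.445, limma adjusted p = 0.00601, called) and -2.54 with si-A2 (adjusted p = 0.0147, not called). The latter was at least 3.80-fold lower on the processed signal, against the lowest signal well above background on each array. The si-A1 call held in 3 of the 12 fits that left out 1 array, those without si-A1 replicates 1, 3 or 4, and the si-A2 difference was called in the fits without si-A1 replicate 1 or si-A1 replicate 4, arrays that enter the shared estimate of spread. The si-A1 call was also lost with the replicate number as a block (limma adjusted p = 0.0195). Counting the fits without 1 array, the si-A2 difference was called under 9 of 24 alternative settings. Normexp, an alternative background correction, was 1 of them (limma adjusted p = 0.00260).

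At 48 h this probe read 6.26, 6.12, 6.48 and 6.46 with scramble, 2.86, 2.14, 2.32 and 3.05 with si-A1, and 4.57, 3.77 and 4.15 with si-A2. No si-A1 array was well above background and all 3 si-A2 arrays were. On the processed signal it was at least 8.70-fold lower with si-A1, against the lowest signal well above background on each array. The measured difference was -3.74 (SE 0.242, limma adjusted p = 5.6e-05), a call that held without each array in turn. An alternative background correction, normexp, gave a smaller difference of -1.03. With si-A2 it fell by 2.18 (SE 0.264, 4.52-fold lower, adjusted p = 0.00730), but this was called in 0 of the 11 fits that left out 1 array (-2.49 to -1.99, adjusted p up to 0.0347) and was lost with the replicate block (-2.28, adjusted p = 0.0168).

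TOP2B showed no change past the threshold in any comparison. At 24 h it read 9.96, 9.88, 10.15 and 9.92 with scramble, 10.00, 9.94, 9.82 and 10.10 with si-A1, and 9.95, 10.04, 9.86 and 9.99 with si-A2. The groups overlapped throughout. The difference from scramble was -0.01 with si-A1 (95% confidence interval -0.28 to 0.25, limma adjusted p = 0.971) and -0.02 with si-A2 (interval -0.28 to 0.25, adjusted p = 0.976), with the opposite sign, 0.06 and 0.08, when arrays were scaled to their 75th percentile instead. TOP2B is read by up to 10 spots on an array at both times, with a median coefficient of variation of 3.60% at 24 h and 4.07% at 48 h.

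At 48 h TOP2B read 8.53, 8.76, 8.63 and 8.38 with scramble, 8.35, 8.54, 8.44 and 8.53 with si-A1, and 8.42, 8.59 and 8.62 with si-A2. All groups overlapped again. The difference was -0.11 with si-A1 (interval -0.36 to 0.14, limma adjusted p = 0.576) and -0.03 with si-A2 (interval -0.30 to 0.23, adjusted p = 0.928), and the latter turned to 0.01 with the replicate block. The lower ends of these intervals correspond to smaller decreases than any called for TOP2A or MKI67.

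Over the 5 probes, 4 were called lower with si-A1 at 24 h, against 1.01% of all 45227 probes tested, and 3 of the 5 with si-A2, against 0.842%. At 48 h 4 of the 5 were called lower with si-A1, against 3.85% of 45783 probes, and 2 of the 5 with si-A2, against 0.334%. No probe of the 3 genes was called higher in any comparison with scramble. The 3 MKI67 probes read the same gene and are not independent. With RNA from whole cultures, fewer cycling cells and less RNA per cell cannot be told apart. The processed signal was corrected for background before log2 was taken. The alternative correction, normexp, starts from the median signal and local background of a spot and adds an offset of 50. An offset of this size by itself makes differences at low intensities smaller. With normexp TOP2A and the second MKI67 probe differed with si-A1 by -1.03 and -1.60 at 24 h, and by -1.97 and -1.86 at 48 h. The dimmest MKI67 probe moved most, from -2.88 to -0.68 with si-A1 and from -2.54 to -0.63 with si-A2 at 24 h, and from -3.74 to -1.03 and from -2.18 to -0.83 at 48 h, so the size of its change depends on this correction. With it all 4 MKI67 and TOP2A probes were called with si-A1 at both times.

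**Figure D2:**
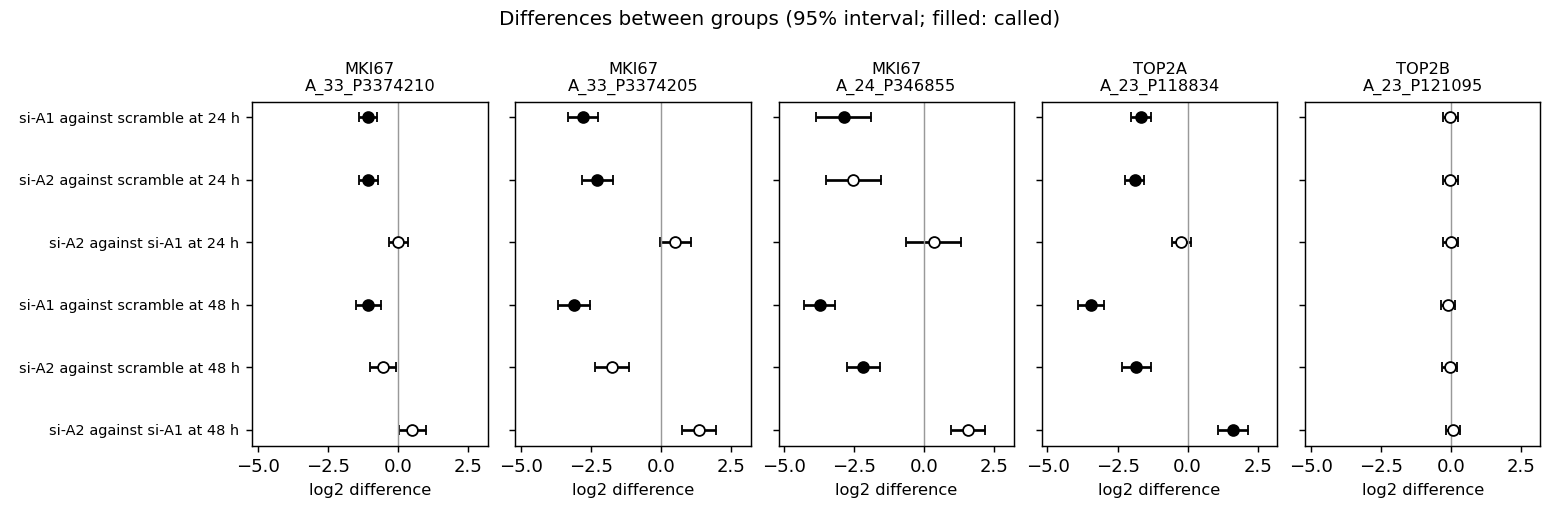
Log2 difference (horizontal axis) with its 95% confidence interval for each probe, between each siRNA and scramble and between the siRNAs, at 24 h and 48 h; filled points passed the threshold. Against scramble, the MKI67 and TOP2A probes lie between -3.74 and -0.53, and the TOP2B intervals all cross 0.

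The 3 MKI67 probes gave unequal differences on the same arrays. Relative to scramble, the change of the second probe minus that of the brightest one was -1.72 ± 0.61 with si-A1 and -1.22 ± 0.30 with si-A2 at 24 h (SD, n = 4), and -2.06 ± 0.40 with si-A1 (n = 4) and -1.16 ± 0.41 with si-A2 (n = 3) at 48 h. The probes are assigned to the same transcript record, and where on the transcript each binds was not analysed here. On the same scale the change of TOP2A minus that of TOP2B was -1.66 ± 0.35 and -1.88 ± 0.23 at 24 h and -3.3 ± 0.28 and -1.89 ± 0.86 at 48 h, for si-A1 and si-A2 in that order.

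The siRNAs were also set against each other. At 24 h 0 of the 5 probes differed between si-A2 and si-A1 by limma, against 0.36% of all probes. At an unadjusted limma p under 0.05 also 0 did so, against 5124 of all 45227 probes tested. The TOP2A difference, si-A2 minus si-A1, was -0.22 (95% confidence interval -0.57 to 0.13) and that of the second MKI67 probe was 0.50 (interval -0.04 to 1.05), where the groups did not overlap. At 48 h TOP2A was the 1 probe of the 5 called, 3.07-fold higher with si-A2 than with si-A1 (log2 difference 1.62, SE 0.231, interval 1.1 to 2.14, adjusted p = 0.00647), against 0.959% of all probes called higher. The second and dimmest MKI67 probes differed by 1.35 (adjusted p = 0.0264) and 1.57 (adjusted p = 0.0130, at least 1.93-fold on the processed signal) and were not called. Under 24 alternative settings they were called in 1 and 3. The TOP2A call held in 1 of the 11 fits that left out 1 array, that without si-A2 replicate 3 (values from 1.32 to 1.92, adjusted p up to 0.0410), and was lost with the replicate block (1.60, adjusted p = 0.0185).

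Among the si-A2 arrays at 48 h, replicate 1 had the highest reading of TOP2A and of each MKI67 probe. Its slide also held 2 scramble arrays, 2 si-A1 arrays and the dim si-A2 array that was left out, and the TOP2A difference from scramble was -1.31 on this slide and -2.15 on the other. For the second MKI67 probe the values were -1.20 and -2.10, and for the brightest 0.12 and -0.95. The si-A1 differences on the same slides were close to each other, -3.39 and -3.50 for TOP2A. The TAPIR-2 probe A_19_P00318461 read 5.62 on the si-A2 array in question and 4.70 and 5.41 on the scramble arrays of its slide. The part of this reading in the smaller differences was not tested.

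**Figure D3:**
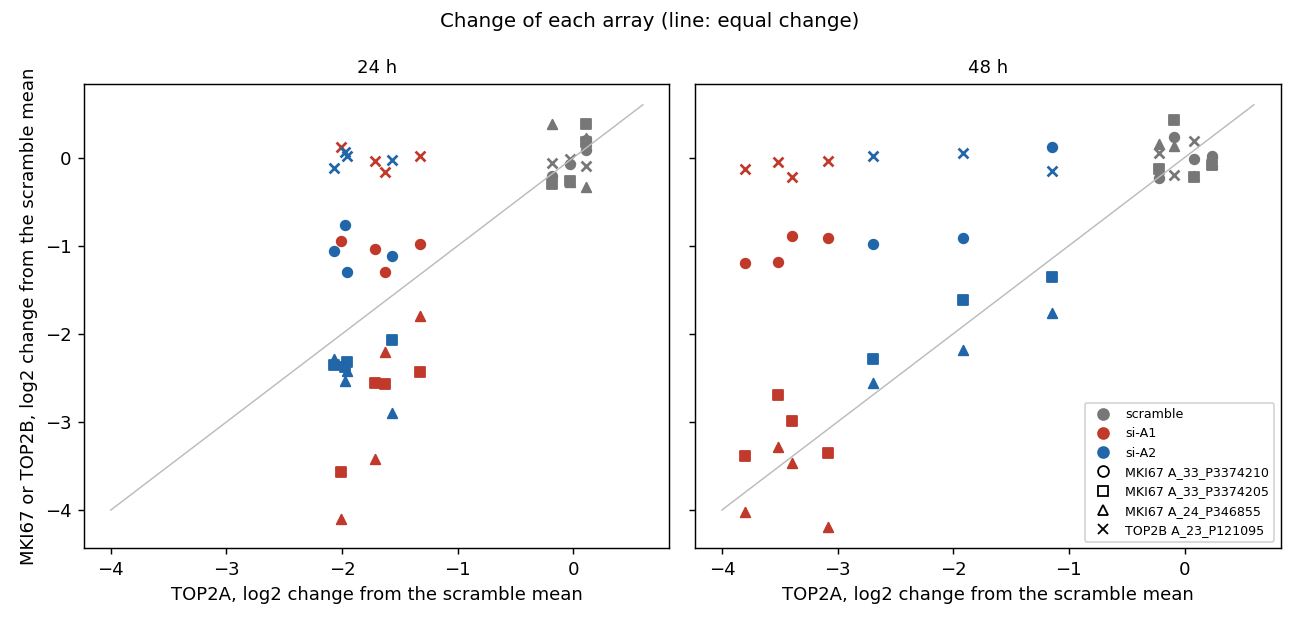
Log2 change of each array from the scramble mean of its time point, for the MKI67 probes and TOP2B (vertical axis) against TOP2A (horizontal axis); each array gives 4 points, coloured by group, and the line marks equal change. The 3 si-A2 arrays at 48 h spread out along the line for the second and dimmest MKI67 probes, the brightest probe lies above it on all knockdown arrays, and TOP2B stays near 0.

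The change of an effect between the times was tested with an interaction term, fitted to 36255 probes that both array versions hold. Arrays of both times were normalised together for this, so the effects can differ from those given above. For the dimmest MKI67 probe with si-A1 they were -3.13 at 24 h and -3.44 at 48 h. The TOP2A effect of si-A1 went from -1.66 to -3.45, a change of -1.79 (SE 0.264, 95% confidence interval -2.35 to -1.23, limma adjusted p = 0.00366), where 0.0993% of all probes were called in the same direction. This call held in 14 of 23 fits that left out 1 array, with values from -1.89 to -1.69, and was lost, with adjusted p up to 0.0149, without replicates 1, 2 or 4 of scramble or 1 or 3 of si-A1 at 24 h, or replicates 1 or 4 of scramble or 1 or 3 of si-A1 at 48 h. It was also lost with no slide term (adjusted p = 0.0197) and with the dim array kept, and with normexp it was called at -1.01. The MKI67 effects of si-A1 changed by 0.07, -0.34 and -0.32 for the brightest, second and dimmest probe, and none was called. For si-A2 no probe of the 3 genes was called by limma, against 0.0331% of all probes, and 1 was at an unadjusted p under 0.05, the brightest MKI67 probe with a change of 0.56 (adjusted p = 0.634). The TOP2A effect of si-A2 changed by 0.04 (adjusted p = 0.987), and its sign turned under other settings. Time and array version cannot be told apart in these contrasts, and TOP2A has 1 spot per array at 48 h in place of up to 10.

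Other topoisomerases and the proteins that work with them passed the threshold less often than not. Of 10 genes tested, 3 were called lower with si-A1 and 2 with si-A2 at 24 h, with medians of -0.24 and -0.33, where 1.67% and 1.47% of all named genes were called lower with medians of 0.04 and 0.03. BLM, the helicase that dissolves recombination intermediates together with topoisomerase III alpha, fell with both siRNAs (log2 differences of -2.40 with si-A1 and -2.28 with si-A2), and so did RMI2, a subunit of the same complex (-1.33 and -1.5). TOP3A, the topoisomerase of that complex, fell by 0.83 with si-A1. RMI2 held without each array in turn, whereas BLM with si-A1 was lost without scramble replicates 1, 2 or 4 or si-A1 replicate 4, BLM with si-A2 held in 3 of the 12 such fits, and TOP3A in 0 of 12 (adjusted p from 0.0102 to 0.0311). With normexp BLM differed by only -0.51 and -0.55, still called, and TOP3A, at -0.49, was not called. TOP1, which cuts a single strand, differed by -0.00 and 0.11, and TDP2, which removes trapped type II topoisomerase from DNA ends, was not called.

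At 48 h 4 of the 10 were lower and 1 was higher with si-A1 (median -0.76), where 6.06% of all named genes were lower (median 0.02). With si-A2 0 were called by limma (median -0.31), where 0.589% of all named genes were called lower. An unadjusted limma p under 0.05 was reached with si-A2 by 7 of the 10, against 8033 of all 45783 probes tested. With si-A1 BLM fell by 2.80 and TOP3A fell by 1.05. TOPBP1, a scaffold of the replication checkpoint, fell by 1.28, and TDP1, which removes trapped topoisomerase I, fell by 1.04. These calls held without each array in turn. RMI2 was not among the genes called against scramble at this time. With normexp TDP1 was not called (-0.36), BLM and TOP3A were called at -0.70 and -0.60, and TOPBP1 at -0.83. The mitochondrial TOP1MT rose by 0.54, a call that was lost in each of the 11 fits that left out 1 array. TOP1 differed by -0.17.

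A list of 15 genes for mitotic chromosome structure also took in the nucleolar proteins NPM1, NCL and NIFK and the phosphatase subunits PPP1CB and PPP1CC. Of the 15, 7 were called lower with each siRNA at 24 h (medians -0.41 and -0.65), where 1.67% and 1.47% of all named genes were. The other 8 were not called, with values up to 0.23 and 0.34. At 48 h 10 of 15 were lower with si-A1 (median -1.51, where 6.06% of all named genes were lower) and 2 of 15 with si-A2 (median -0.88, where 0.589% of all named genes were lower with a median of -0.01). The condensin core subunits SMC4 and SMC2 fell with si-A1, by log2 differences of -1.46 and -1.43 at 24 h and of -2.66 and -2.85 at 48 h. The chromokinesin KIF4A, which binds condensin, also fell (-1.26 at 24 h and -3.59 at 48 h), as did CDCA2, which like Ki-67 brings protein phosphatase 1 to chromosomes (-1.75 and -3.72). The nucleolar proteins NPM1 and NIFK, the latter a binding partner of Ki-67, were not called in any comparison with scramble. The SMC2 call with si-A1 at 24 h was lost without scramble replicates 1 or 2 or si-A1 replicates 2, 3 or 4. The other si-A1 calls named here held without each array in turn. With si-A2 at 24 h SMC4, SMC2, KIF4A and CDCA2 were called lower too (-1.32, -1.53, -1.36 and -1.90). Of these the SMC2 call held in 8 of the 12 fits that left out 1 array and the others in all 12. With normexp the si-A1 differences named here were smaller, from -0.90 to -0.78 at 24 h and from -1.88 to -1.31 at 48 h, and were called. The calls at 48 h with si-A2, SMC4 (-1.38) and NCAPD2 (-1.34), a regulatory subunit of condensin, were lost in each of the 11 fits that left out 1 array.

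A proliferation signature of 12 genes other than these gave 9 called lower with each siRNA at 24 h (medians -1.58 and -1.43), 11 with si-A1 at 48 h (median -2.68) and 3 with si-A2 at 48 h (median -1.52). Of all named genes 1.67% and 1.47% were called lower at 24 h and 6.06% and 0.589% at 48 h. RRM2, which makes deoxynucleotides, fell by 3.12 with si-A1 and fell by 2.88 with si-A2 at 24 h, and BIRC5 (survivin, of the chromosomal passenger complex) fell too (-2.07 and -1.89). CEP55, needed to complete cytokinesis, fell as well (-2.39 and -2.14), and all 6 calls held without each array in turn and with normexp, where CEP55 differed by -1.23 and -1.18. CCNB1, the mitotic cyclin B1, did not pass in any comparison with scramble, at 0.33 and 0.26 at 24 h and 0.83 and 0.09 at 48 h. These values come from its brightest probe only. The paper lists CCNB1 among the genes lowered after TAPIR knockdown and measured it by quantitative PCR at 48 h. The si-A2 list calls at 48 h with named values, CDC20 (-1.48) among them, were lost in each fit that left out 1 array.

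Among 14 regulators that act on promoters of cell cycle genes, 1 was called lower with si-A1 and 3 with si-A2 at 24 h, and 5 and 2 at 48 h, with medians between -0.39 and -0.23. The shares of all named genes called lower were 1.67% and 1.47% at 24 h and 6.06% and 0.589% at 48 h. FOXM1, a transcription factor of late cell cycle genes, fell with both siRNAs at 24 h (-1.01 and -1.11) and with si-A1 at 48 h (-2.48). MYBL2, which activates such genes as part of the MuvB complex, fell by 1.13 with si-A2 at 24 h and with si-A1 at 48 h. Between the siRNAs at 48 h, 1.57% of all named genes were called higher with si-A2 than with si-A1 by limma. So were 1 of the 10 topoisomerases and partners, 2 of the 15 chromosome genes, 4 of the 12 signature genes and 0 of the 14 regulators. An unadjusted limma p under 0.05, in either direction, was reached by 6 of the 14 regulators, against 8630 of all 45783 probes tested. RRM2 and CEP55 differed by 2.20 and 2.27, calls that were lost without si-A1 replicates 1, 2 or 3 or si-A2 replicates 1 or 4. With the replicate block the RRM2 call was kept, whereas those of CEP55 (adjusted p = 0.0101), BLM (0.0198) and SMC4 (0.0239) were lost.

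**Figure D4:**
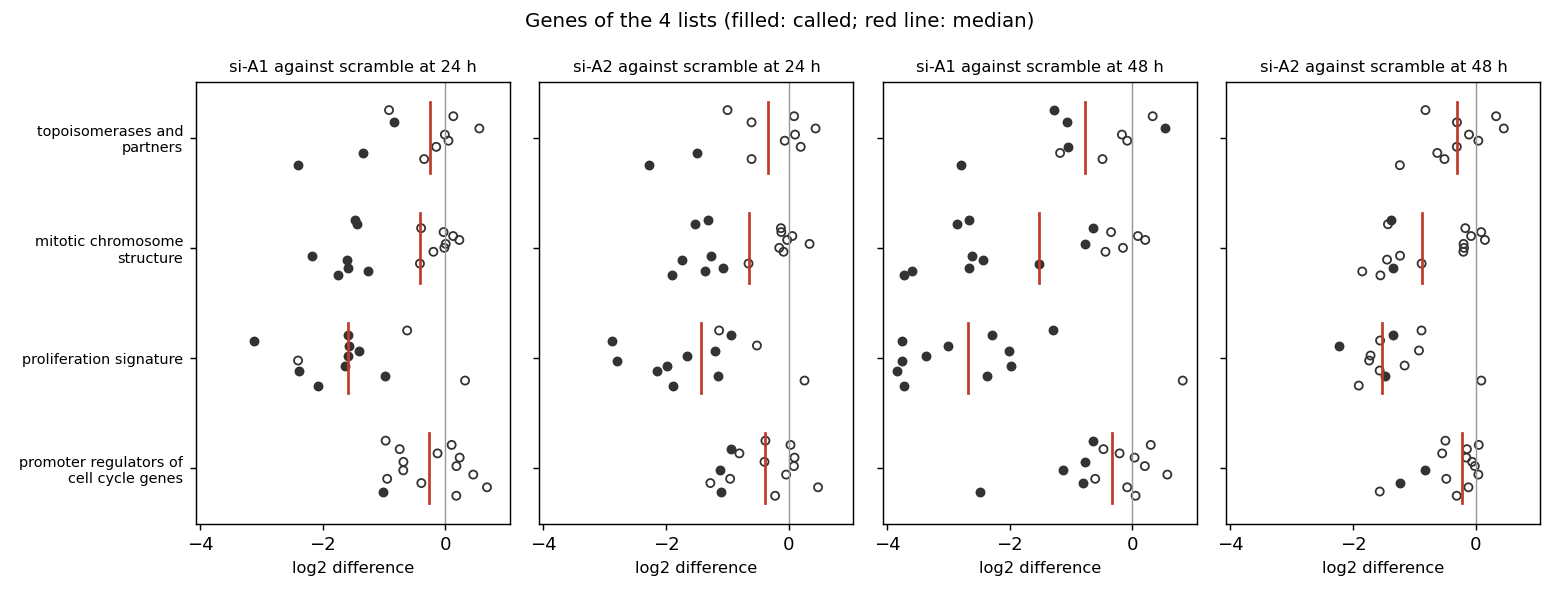
Log2 difference from scramble (horizontal axis) of each tested gene in the 4 lists, for both siRNAs and times; filled points passed the threshold and the line marks the median of a list. Of the 4 lists the proliferation signature has the lowest median in each comparison, -2.68 with si-A1 at 48 h, and the single open point right of 0 in that list is CCNB1.

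The genes whose levels ran most like each of the 3 across the arrays, with slide means removed and the probes of a gene averaged for MKI67, were ranked by the lower of the correlations over the 12 arrays at 24 h and the 11 arrays at 48 h, among 18001 genes. For MKI67 these were PIMREG (0.990), FANCI (0.983), CENPI (0.982), BIRC5 (0.981) and DNAJC9 (0.980). For TOP2A they were CCNA2 (0.994), ARHGAP11B (0.994), H2AC11 (0.992), H2BC5 (0.991) and H3C12 (0.989), of which the last 3 belong to histone families with near-identical copies and ARHGAP11B is a partial copy of ARHGAP11A, so that shared hybridisation was not tested. For TOP2B the best values were lower, AFF1 at 0.803, OR5B2 at 0.771 and LINC00941 at 0.765. Arrays share their group differences, so these correlations describe the groups as much as the genes. TOP2A and TOP2B correlated at 0.0662 at 24 h and 0.345 at 48 h. The averaged MKI67 probes correlated with TOP2A at 0.959 and 0.989, and the brightest MKI67 probe alone at 0.923 and 0.929.

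Of the nearest protein-coding genes on either side, PTPRE and MGMT beside MKI67, GJD3 and IGFBP4 beside TOP2A, and RARB and NGLY1 beside TOP2B, none was called in a comparison with scramble by limma at the times when a probe was tested, which for PTPRE was 24 h, and 3 of the 22 tests had an unadjusted p under 0.05. Of all probes tested, 5902 and 5306 of 45227 had such a p with si-A1 and si-A2 at 24 h. At 48 h 13032 and 8033 of 45783 did. RARB overlaps the end of TOP2B by 28 bases. Of the other cell types, no marker of basal cells, fibroblasts or leukocytes was called by limma in any comparison with scramble. An unadjusted p under 0.05 was reached by 1 basal and 1 leukocyte marker with si-A2 at 24 h and by 1 fibroblast marker with each siRNA at 48 h, and 3 of 3 leukocyte markers at 24 h and 2 of 2 at 48 h were rated well above background. The fibroblast marker DCN was so on 2 of 12 arrays at 24 h and 11 of 11 at 48 h. COL1A1 was so on 3 and 0 arrays, and COL3A1 on 1 and 0. Of the luminal and LNCaP markers reported here, KLK2 fell by 1.07 with si-A1 at 48 h, a call that was lost with no slide term (adjusted p = 0.0826). KLK2 moved beside the changes above, and its part in the results above was not tested.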

How the data were processed

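LNCaP RNA was hybridised to 24 one-colour Agilent arrays. The authors deposited scanner output whose processed intensities are linear, with background subtracted and trends removed within each array (Agilent Feature Extraction 11.5.1.1, per the file headers). For each time the authors also deposited normalised log2 values, used here as an alternative. The submitters' processing notes name R 3.4.3, limma 3.34.8 and hg38.

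Log2 processed intensities of the non-control spots were quantile-normalised within a time point, spots marked as outliers were dropped, and repeated spots were averaged. For the change of an effect between the times, the 23 arrays used were instead normalised together and fitted at once. There the normalisation followed the averaging of spots and took in the probes that both array versions hold. Probes were assigned to genes by transcript accession through RefSeq on GRCh38.p14, which succeeded for 29033 of 50599 probes at 24 h and 31104 of 58201 at 48 h. Probes that exceeded, on 3 or more arrays, the negative controls (308 spots, mean + 3 SDs of log2 values) were tested, 45227 and 45783 in number, and all probes of MKI67, TOP2A and TOP2B passed. Levels are not compared between times.

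Linear models (lmFit, then eBayes) came from limma 3.58.1 under R 4.3.3, with statmod 1.5.0 for random blocks, and took in all groups of a time point and the slide as an additive term. P-values are limma's with Benjamini-Hochberg adjustment over all probes tested. The scripts were tested on simulated data. At 48 h every same-numbered pair of arrays deviated together (10 of 10 correlations over 0.1, from 0.177 to 0.344), so the replicate number was also fitted as a block. Pairs of different number on the same slide gave 0.0942 to 0.284, so number and slide overlap in this check. Where no array of a group had a probe well above background, a fold is given as "at least", against the lowest signal well above background on each array. That lowest signal is taken over all probes, and the fold holds for the processed signal only. Normexp gave smaller differences for the dimmest MKI67 probe. The number of arrays and the signal over background limit the precision. Genes and lists were chosen with earlier results of these data known, and beyond every probe of the 3 genes, list genes by their brightest probe, the nearest protein-coding genes and the 5 most alike genes of each were named. The change of 1 luminal marker is not reported here.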

Additional observations from a re-analysis of the deposited data

Results flagged for a closer look

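The second MKI67 probe, A_33_P3374205, stood at a log2 intensity of 4.29 on the 24 h array of si-A1 replicate 4, while the other 3 arrays of that group lay between 5.29 and 5.42. This gap is 0.885 of the range of the group, above what Dixon's test allows for 4 samples at the 95% level. In all 25 groups of 4 arrays were examined, and such a limit is passed by chance in about 5% of groups. Without that array, the probe was still called.

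The TOP2A effect of si-A1 differed between the time points by -1.79 on the log2 scale, with the larger decrease at 48 h, by a test of the difference itself. It was 1 of 10 such tests on the probes of the 3 genes. The call was lost with no slide term (adjusted p = 0.0197), with the dim array kept and in 9 of the 23 fits that left out 1 array, and with normexp the difference was -1.01. The time points were measured on different array versions.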

How the results depend on the processing

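Among all probes 492, 423 and 163 were called for si-A1, si-A2 and si-A2 against si-A1 at 24 h, 2728, 181 and 642 at 48 h, and 57 and 12 for the changes in the si-A1 and si-A2 effects. Of the 5 probes of the 3 genes these were 4, 3, 0, 4, 2, 1, 1 and 0. Without 1 array at a time the counts ranged from 257 to 430, 268 to 398, 33 to 339, 1352 to 2753, 0 to 51, 47 to 583, 8 to 85 and 3 to 27 over all probes, and from 2 to 4, 2 to 4, 0 to 0, 3 to 4, 0 to 0, 0 to 1, 0 to 1 and 0 to 0 over the 5. Counts that moved by over 1.5 times under other settings were these. With the dim array kept, 48 h gave 31, 0 and 0 calls (1, 0 and 0 of the 5) and the changes 0 and 0 (0 of the 5). With the replicate block, calls were 320 (2 of the 5) for si-A1 and 44 for si-A2 against si-A1 at 24 h, 1730, 0 and 238 at 48 h (0 of the 5 for the last 2), and 37 for the change with si-A1. At 24 h the same-number correlations ran from -0.145 to 0.158, a check that cannot show the arrays to be unpaired. With no slide term, 48 h gave 1484, 94 and 330 (1 and 0 of the 5 for the last 2) and the change with si-A1 32 (0 of the 5). With only the 2 groups compared, 24 h gave 175 (2 of the 5), 189 and 31, and 48 h gave 0 and 6 (0 of the 5) for the last 2. The interquartile range filter gave 280, 276 and 33 at 24 h and 1761, 58 (1 of the 5) and 357 at 48 h. The filter on probes well above background gave 752 and 417 for si-A1 and si-A2 against si-A1 at 24 h, 662 and 1239 (3 of the 5) for the last 2 at 48 h, and 108 for the change with si-A1. Normexp gave 408 for si-A2 against si-A1 at 24 h, 583 for si-A2 at 48 h and 185 for the change with si-A1. No background filter gave 114 (0 of the 5) and a background limit on the linear scale, chosen after seeing the data, 284 for si-A2 at 48 h, the latter with 2 of the 5 for si-A2 against si-A1, as with slide as a random block. Scaling to the 75th percentile gave 7 for the change with si-A2. With 1 probe per gene, 3 probes stand for the 3 genes, and 2, 2 and 1 were called for si-A1 at 24 h, si-A1 at 48 h and si-A2 at 48 h. Differences that were never called changed sign as follows. TOP2B at 24 h was 0.0626, 0.0775 and 0.0149 with the 75th percentile and ranged over single arrays left out from -0.0639 to 0.0492, -0.0498 to 0.0484 and -0.0578 to 0.0485. At 48 h it was 0.0131 for si-A2 with the replicate block (-0.12 to 0.0579 over arrays left out) and -0.86 for si-A2 against si-A1 with the dim array kept. For si-A2 against si-A1 at 24 h the brightest MKI67 probe ranged from -0.0796 to 0.0759 and the dimmest from -0.11 to 0.73. The change of the si-A1 effect ranged from -0.0401 to 0.23 (brightest, -0.0221 with normexp), from -0.77 to 0.13 (dimmest) and from -0.14 to 0.00299 (TOP2B), and that of si-A2 from -0.26 to 0.34 (TOP2A) and from -0.0838 to 0.0833 (TOP2B). The latter changes were also -0.16 with normexp, -0.0517 with no slide term and -1.22 with the dim array for TOP2A, 0.0412 with the replicate block and 0.00117 with marked spots kept for TOP2B, -0.20 with normexp for the dimmest and -0.0225 with the dim array for the second MKI67 probe. The causes were not tested.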
